A study of Mus musculus with 6 samples.

Results

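The endothelial and endocardial marker genes are 10 genes among the 43629 genes listed in the count files. They were named by hand and not by a rule on measured values, but with earlier results of these data known. They are Pecam1, Cdh5, Kdr, Flt1, Tek, Tie1, Emcn, Eng, Vwf and Esam, and all 10 had enough reads to be tested. Their expression was compared between embryonic cardiomyocytes transfected with negative siRNA and with DNMT1 siRNA, and the question for these genes was whether transcripts of the vessel and chamber lining were present in the sorted cells and whether they changed after knockdown of DNMT1, the enzyme that copies DNA methylation onto the new strand after replication. Both groups were primary cells of the heart ventricles of CD-1 mouse embryos at embryonic day 13.5, prepared from tissue pooled by litter. Neither group was untreated, since both received siRNA at 12 nM, an AllStars negative control siRNA in the negative siRNA group and a mixture of siRNAs against Dnmt1 in the DNMT1 siRNA group, and both were collected 72 h after transfection. The cells were then sorted with magnetic beads for VCAM1, the surface protein by which the study selected cardiomyocytes, and poly(A) RNA was sequenced from 3 cultures per group. Whether this sort kept out vessel-lining cells was not tested here. Whether the cultures of a group came from separate litters is not given in the sources used here, so that p-values measure the spread between these cultures, which may be technical. The titles of the DNMT1 siRNA samples name DNMT1 and their treatment tag names DNMT3a siRNA, and the titles were followed.

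Endothelial cells line blood and lymph vessels, and the endocardium is the endothelial layer inside the heart chambers. Both layers carry receptors for vascular endothelial growth factors (Kdr and Flt1) and for angiopoietins (Tek, with its relative Tie1), join to each other through adhesion molecules of the cell border (Cdh5, Pecam1 and Esam), and expose the sialomucin Emcn and the TGF-beta coreceptor Eng on their surface, while Vwf, the clotting factor that binds platelets, is stored inside them. In the developing ventricle the endocardium and the growing coronary vessels lie directly against the muscle.

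Dnmt1 itself fell to 24.5% of its negative siRNA level (log2 fold change -2.03 ± 0.11 SE, adjusted p = 0.000192), and the log2 fold change of the sort marker Vcam1 stood at -0.26 ± 0.11 (SE, adjusted p = 0.148). Reads on genes numbered 27852412 to 35896018 per negative siRNA culture and 13739561 to 16186310 per DNMT1 siRNA culture. The libraries are bulk RNA, in which fewer cells of a type and less RNA per cell cannot be told apart. Among the negative siRNA cultures, number 2 stood farthest from the others (chi-square per degree of freedom of 55.2 and 50.5 against cultures 1 and 3, and 26.8 between those), so that values with and without it are given where they differ. The labelled cell type was cardiomyocyte, and the paper cites its earlier flow cytometry, by which the great majority of the sorted cells were cardiomyocytes. The heart muscle markers were present (Tnnt2 at 100.2 ± 16.6 RPKM with negative siRNA, SD, n = 3). A list of 10 fibroblast markers summed to 36549 to 56126 CPM (counts scaled by library size) per negative siRNA culture, against 1954 to 2436 for 10 cardiomyocyte markers and 303 to 353 for the 10 endothelial and endocardial markers. These sums measure RNA and do not count cells. The fibroblast sum was carried by 3 collagens (Col1a1, Col1a2 and Col3a1), and the other 7 fibroblast markers summed to 1713 to 1839 CPM per negative siRNA culture, below the cardiomyocyte markers. RPKM, reads scaled by exon length and by library size, was computed here from the deposited counts.

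Promoter sequences were found for 6 of the 10 genes in the RefSeq annotation of GRCm38.p6. The 250 bases that end at the start site are shown for Kdr and Emcn, members that rose past both limits of the test, and for Tek, which had lower counts after knockdown, because they differ in their content of CG, the dinucleotide whose methylation DNMT1 maintains. They run 5′ to 3′ along the strand of the gene, with each CG in capitals. Kdr lies on the minus strand at chr5:75978456-75978705, and Tek and Emcn lie on the plus strand at chr4:94739039-94739288 and chr3:137340828-137341077.
Kdr: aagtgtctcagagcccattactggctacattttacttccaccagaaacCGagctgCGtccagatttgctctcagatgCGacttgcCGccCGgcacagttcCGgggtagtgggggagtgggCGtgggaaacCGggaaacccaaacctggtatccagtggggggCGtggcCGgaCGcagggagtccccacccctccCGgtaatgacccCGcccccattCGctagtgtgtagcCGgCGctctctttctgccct
Tek: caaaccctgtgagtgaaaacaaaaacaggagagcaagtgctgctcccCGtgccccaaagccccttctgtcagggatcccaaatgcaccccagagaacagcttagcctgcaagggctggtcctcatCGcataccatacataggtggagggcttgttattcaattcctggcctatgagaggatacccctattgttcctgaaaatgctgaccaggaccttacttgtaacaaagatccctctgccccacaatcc
Emcn: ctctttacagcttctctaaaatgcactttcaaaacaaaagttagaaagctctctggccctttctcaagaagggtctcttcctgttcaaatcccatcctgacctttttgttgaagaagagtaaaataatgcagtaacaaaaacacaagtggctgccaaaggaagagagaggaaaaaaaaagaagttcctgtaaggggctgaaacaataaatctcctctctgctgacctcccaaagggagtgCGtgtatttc
The Kdr window holds 16 CG, the Tek window 2 and the Emcn window 1. Over the windows of all 32851 promoters in the same table, the quartiles were 2 and 16 CG with a median of 6, and the windows of Flt1, Tie1 and Eng held 23, 6 and 4. Of the members that rose past both limits, Kdr had many CG and Emcn had few, and no sequence was found for Vwf. The letters GGAA, the core of sites bound by ETS factors, were found on either strand in all 6 windows, and in 93.4% of all promoters. A longer form of this core, AGGAAG, which contains it, was found on either strand in 4 of the 6 windows (Flt1, Tie1, Emcn and Eng) and in 29.5% of all promoters. The letters ACAAT, a core of sites bound by SOX factors, were found in the windows of Tek and Emcn and in 27.7% of all promoters. The GATA site AGATAA was found in none of the 6 windows and in 10.0% of all promoters. For the forkhead site TGTTTAC the count was also 0 of 6, with 3.2% of all promoters holding it on either strand. These counts describe letters and not binding, and DNA methylation was not analysed here.

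After knockdown of DNMT1, 9 of the 10 markers had higher mean expression and 1, Tek, had lower expression. Of all 15470 tested genes, 7631 had a positive log2 fold change and 7839 a negative one. Vwf, Emcn and Kdr rose past both limits, an FDR below 0.05 and a fold change above 1.5, and none fell past them. Over all 15470 tested genes, 4.26% passed both limits upward and 2.23% downward, or 6.49% in either direction. By the edgeR test, 8 markers were higher and 1, Tek, lower at an unadjusted p below 0.05, and by DESeq2 6 were higher and 1 lower at an FDR below 0.05. The shares of all tested genes at these limits are not given, here or for the lists below, so these counts have no background beside them. The median log2 fold change of the 10 markers was 0.85, and that of all tested genes was -0.0049. With the FDR limit alone, 5 markers were higher (Vwf, Emcn, Kdr, Flt1 and Eng) and 1 was lower (Tek), against 6.81% and 5.65% of all tested genes. The groups did not overlap in 6 of the 10 markers, and in 36% of all tested genes. The summed level of the 10 markers was 303, 353 and 349 CPM in negative siRNA cultures 1, 2 and 3 and 458, 466 and 452 CPM in DNMT1 siRNA cultures 1, 2 and 3, and Eng held between 47.0% (negative siRNA culture 2) and 57.9% of the members' reads in each culture. A normalized count is the read count divided by the relative effective size of its library.

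**Figure D1:**
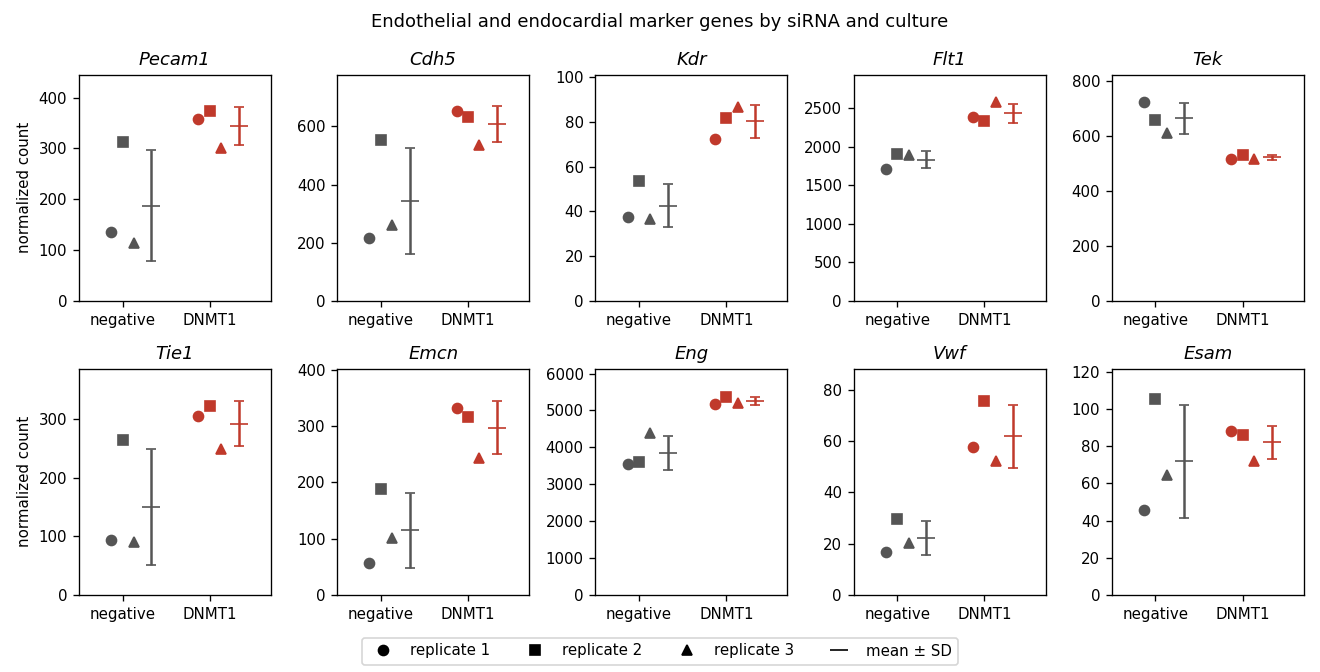
Normalized counts of the 10 endothelial and endocardial marker genes in each culture, with negative siRNA in grey and DNMT1 siRNA in red, replicate numbers by symbol, and the mean ± SD (n = 3) beside the points. Each vertical axis starts at 0. Negative siRNA culture 2 (square) lies above cultures 1 and 3 for Pecam1, Cdh5, Tie1, Emcn and Esam, and by a smaller ratio for Vwf, Kdr and Flt1. The groups are separate for Kdr, Flt1, Tek, Emcn, Eng and Vwf.

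Of the 3 adhesion molecules of the cell border, none passed the edgeR test over all 6 cultures. Pecam1 (ENSMUSG00000020717, chr11:106654217-106750628, minus strand), an immunoglobulin-family molecule also known as CD31, had 135, 314 and 114 normalized counts in negative siRNA cultures 1, 2 and 3 and 358, 373 and 301 in DNMT1 siRNA cultures 1, 2 and 3. Negative siRNA culture 2 was above the lowest DNMT1 siRNA culture, so that the groups overlapped. Its mean was 188 ± 110 normalized counts with negative siRNA and 344 ± 38.1 after knockdown (SD, n = 3). The difference of 0.87 ± 0.34 on the log2 scale (SE) did not pass the edgeR test (adjusted p = 0.136). By DESeq2 the log2 fold change was also 0.87 and passed both limits (adjusted p = 0.0304). Without negative siRNA culture 2, the log2 fold change in edgeR was 1.46 and passed both limits (adjusted p = 0.000325). It was 0.68 without culture 1 and 0.62 without culture 3, and neither value passed the test (adjusted p = 0.249 and 0.239).

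Cdh5 (ENSMUSG00000031871, chr8:104101625-104144511, plus strand) encodes VE-cadherin, the cadherin of endothelial junctions. It had 216, 552 and 261 normalized counts with negative siRNA and 653, 631 and 536 with DNMT1 siRNA, and negative siRNA culture 2 again reached into the range of the DNMT1 siRNA cultures. The log2 fold change was 0.83 ± 0.31 (SE, adjusted p = 0.124), and 1.35 without that culture (adjusted p = 0.000269). It was 0.58 without negative siRNA culture 1 and 0.67 without culture 3, and neither value passed the test (adjusted p = 0.207 and 0.241). Esam (ENSMUSG00000001946, chr9:37528078-37538319, plus strand), a junction molecule shared with platelets, behaved differently in that its highest value of all 6 was in the negative siRNA group. It had 45.5, 105 and 64.5 normalized counts with negative siRNA and 88.5, 86.0 and 72.0 with DNMT1 siRNA, a difference of 0.20 ± 0.30 on the log2 scale (SE, adjusted p = 0.704). The difference was -0.049 without negative siRNA culture 1 and 0.59 without culture 2, and neither value passed the test.

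The 2 receptors for vascular endothelial growth factors were both higher past the FDR limit after knockdown, by different amounts and from very different levels. Kdr (ENSMUSG00000062960, chr5:75932827-75978458, minus strand), the main signalling receptor for VEGF-A, had 37.35, 53.8 and 36.55 normalized counts with negative siRNA and 72.4, 81.6 and 86.7 with DNMT1 siRNA. All DNMT1 siRNA cultures were above all negative siRNA cultures, as in 18.3% of all tested genes. The log2 fold change was 0.91 ± 0.22 (SE), or 1.88-fold, with an adjusted p of 0.0352. The adjusted p was 0.0582 in the fit with the replicate number as a block, 0.0659 and 0.0677 without negative siRNA culture 1 or 3, and 0.0965, 0.141 and 0.136 without DNMT1 siRNA culture 1, 2 or 3, so that the call needed each of these 5 cultures.

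Flt1 (ENSMUSG00000029648, chr5:147561604-147726011, minus strand), which binds VEGF-A tightly and also exists as a soluble form that holds the ligand away from Kdr, had 1705, 1902 and 1891 normalized counts with negative siRNA and 2380.2, 2338 and 2574 with DNMT1 siRNA. The groups did not overlap, and the cultures within each group were close together. Its log2 fold change of 0.41 ± 0.07 (SE, adjusted p = 0.0124) was below the limit on fold change, and the adjusted p was 0.0669, 0.0587 and 0.0781 without DNMT1 siRNA culture 1, 2 or 3. Per length of exon, Flt1 stood at 6.25 ± 0.379 RPKM and Kdr at 0.217 ± 0.0496 RPKM with negative siRNA (SD, n = 3).

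The TIE receptors differed in direction, with Tek lower past the FDR limit and Tie1 higher in its mean without passing the test. Tek (ENSMUSG00000006386, chr4:94739289-94874976, plus strand), the receptor for angiopoietins also known as TIE2, had 724, 657 and 613 normalized counts with negative siRNA and 518, 532 and 517 with DNMT1 siRNA. Every DNMT1 siRNA culture was below every negative siRNA culture, as in 17.7% of all tested genes. The log2 fold change was -0.35 ± 0.09 (SE, adjusted p = 0.0373), within the limit on fold change, and Tek was the member with a change of this sign. The adjusted p of Tek was 0.0721 with the replicate block, 0.0618 without negative siRNA culture 1, and 0.122, 0.139 and 0.133 without DNMT1 siRNA culture 1, 2 or 3. Tie1 (ENSMUSG00000033191, chr4:118471191-118490061, minus strand), which binds no angiopoietin by itself and modulates Tek at the membrane, had 93.95, 264 and 91.0 normalized counts with negative siRNA and 306, 322 and 249 with DNMT1 siRNA. Its negative siRNA culture 2 was 2.86 times the mean of the other two, the highest such ratio among the members. The log2 fold change was 0.97 ± 0.39 (SE, adjusted p = 0.142) over all cultures and 1.66 without that culture (adjusted p = 0.000231). Over the 16 alternative settings the log2 fold change of Tie1 ranged from 0.71 to 1.66.

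Emcn, Eng and Vwf were higher in every DNMT1 siRNA culture than in any negative siRNA culture. Emcn (ENSMUSG00000054690, chr3:137341067-137432185, plus strand), a sialomucin of venous, capillary and endocardial cells that hinders the adhesion of leukocytes, had 56.6, 188 and 100.3 normalized counts with negative siRNA and 331, 316 and 244 with DNMT1 siRNA. The log2 fold change was 1.38 ± 0.37 (SE), or 2.60-fold, with an adjusted p of 0.0469, and 1.95 without negative siRNA culture 2. The adjusted p was 0.104 without negative siRNA culture 3 and 0.146, 0.164 and 0.108 without DNMT1 siRNA culture 1, 2 or 3.

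Vwf (ENSMUSG00000001930, chr6:125546774-125686679, plus strand) was the least abundant member, with 29, 43 and 26 reads in the negative siRNA libraries and 43, 52 and 32 reads in the smaller DNMT1 siRNA libraries. These were 16.9, 29.6 and 20.2 normalized counts with negative siRNA and 57.7, 75.8 and 52.3 with DNMT1 siRNA. The log2 fold change was 1.48 ± 0.29 (SE), or 2.78-fold, with an adjusted p of 0.0162. Without DNMT1 siRNA culture 1, 2 or 3 the adjusted p was 0.0614, 0.0972 or 0.0521. Eng (ENSMUSG00000026814, chr2:32646595-32682669, plus strand), which helps BMP and TGF-beta ligands reach their receptors, was the most abundant member, with 3559.7, 3599.8 and 4392 normalized counts with negative siRNA and 5179, 5373 and 5189 with DNMT1 siRNA. Its log2 fold change of 0.45 ± 0.09 (SE, adjusted p = 0.0185) was below the limit on fold change, and the adjusted p was 0.0821, 0.103 and 0.0845 without DNMT1 siRNA culture 1, 2 or 3. A stretch of 61 bases, 1.51% of its exon length, overlaps exons of Fpgs on the other strand, and the strand setting of the counting is not given in the sources used here.

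**Figure D2:**
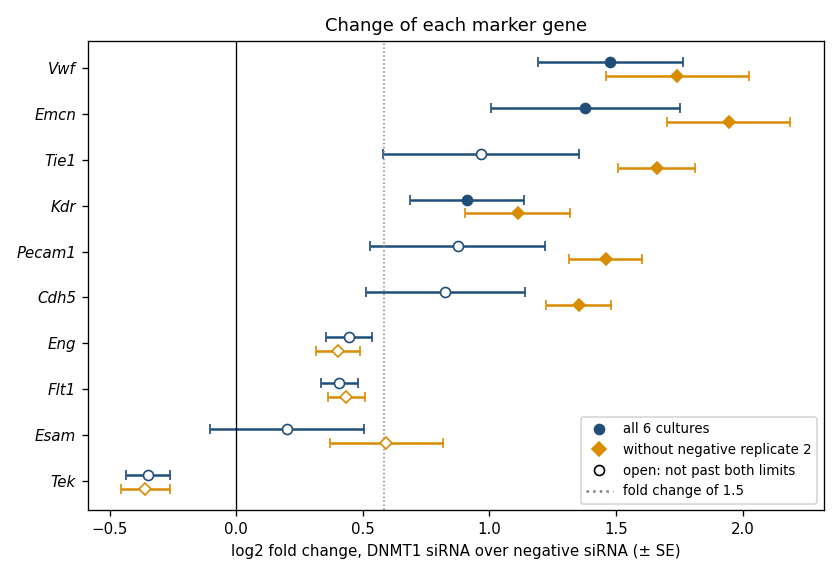
Log2 fold change of each marker gene, DNMT1 siRNA over negative siRNA, with its standard error, over all 6 cultures (circles) and without negative siRNA culture 2 (diamonds). Filled symbols passed an FDR below 0.05 and a fold change above 1.5, and the dotted line is a fold change of 1.5. Kdr, Emcn and Vwf are filled in both fits, and Pecam1, Cdh5 and Tie1 without culture 2.

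The level of negative siRNA culture 2 relative to the other negative siRNA cultures differed from member to member. It was the highest negative siRNA culture for 8 of the 10 markers (all but Tek and Eng), and for 38.1% of all tested genes. Its ratio to the mean of cultures 1 and 3 had a median of 1.76 over the members, with a range of 0.905 to 2.86, and a median of 1.00 over all tested genes. For Flt1, Tek and Eng its log2 CPM was between those of the other cultures or near them, while for Pecam1, Cdh5, Tie1, Emcn and Esam it was high. Kdr and Vwf lay between, with ratios of 1.455 and 1.596. Without it, 6 markers rose past both limits (Pecam1, Cdh5, Tie1, Kdr, Emcn and Vwf) and none fell, against 5.42% and 2.78% (8.2% in either direction) of 15191 tested genes, and the median log2 fold change of the markers was 1.23. Leaving it out lowers the negative siRNA mean of the 8 markers by construction, so their larger rises are no separate result. Without negative siRNA culture 1 or 3 instead, 2 and 1 markers rose past both limits. The median SD of log2 CPM over the 10 markers was 0.49 among negative siRNA cultures and 0.15 among DNMT1 siRNA cultures, and over all tested genes it was 0.17 and 0.10. Whether this culture held more vessel-lining cells was not tested.

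**Figure D3:**
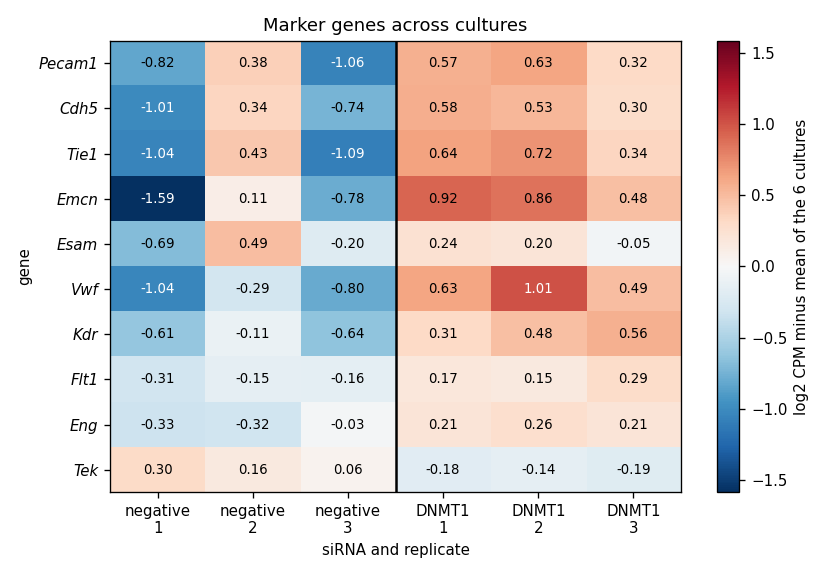
Log2 CPM of each marker gene in each culture after subtraction of the gene's mean over the 6 cultures, with values printed in the cells and red for higher. Negative siRNA culture 2 is above the mean for Pecam1, Cdh5, Tie1, Emcn and Esam, and Tek, with all negative siRNA cultures above its mean, has the opposite order of groups.

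Across the 6 cultures most members varied together. Over the 45 pairs of members, Pearson's r of log2 CPM had a median of 0.81 and a range of -0.97 to 1.00, and 36 pairs were above 0. With the mean of each group removed, the median was 0.48 and 31 pairs were above 0. These values share libraries and group differences and are descriptions over 6 points. Against the mean of the other members, Tek had an r of -0.87, Eng of 0.65, Esam of 0.72 and Flt1 of 0.83, and the other 6 were above 0.93. The tested genes outside the list whose levels followed the mean of the standardized members most closely over the 6 cultures were Asb2 (r = 0.997), Sgca (0.995), Tceal5 (0.995), Apobec2 (0.995) and Ppp1r1b (0.995), among 210 genes above 0.95. That mean was higher in every DNMT1 siRNA culture than in any negative siRNA culture, so a rise of these genes follows from how they were chosen. Asb2, a ubiquitin ligase subunit of muscle and blood cells, rose by 1.05 ± 0.24 on the log2 scale (SE, adjusted p = 0.0293). Apobec2, a muscle member of the APOBEC family, rose by 1.01 ± 0.27 (SE, adjusted p = 0.0464). The log2 fold changes of Sgca, Tceal5 and Ppp1r1b were 1.10, 1.45 and 2.12, and these genes did not pass the test (adjusted p = 0.0607, 0.0915 and 0.0514). Both calls were lost without negative siRNA culture 3 (adjusted p = 0.0694 for Asb2 and 0.103 for Apobec2).

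Compared per length of exon, the members covered a wide range of levels. With negative siRNA, Eng was highest at 43.8 ± 5.34 RPKM (SD, n = 3), followed by Tek (6.50 ± 0.548), Flt1 (6.25 ± 0.379), Cdh5 (3.76 ± 2.00), Tie1 (1.40 ± 0.928), Pecam1 (1.39 ± 0.810), Esam (1.15 ± 0.492), Emcn (0.978 ± 0.567), Kdr (0.217 ± 0.0496) and Vwf (0.0638 ± 0.0189). From Tek to Emcn each gene overlapped the next in that order, and the gaps from Eng to Tek, from Emcn to Kdr and from Kdr to Vwf were beyond the range of the cultures. With DNMT1 siRNA the order was Eng (59.7 ± 1.24 RPKM), Flt1 (8.29 ± 0.430), Cdh5 (6.65 ± 0.679), Tek (5.10 ± 0.0837), Tie1 (2.74 ± 0.362), Pecam1 (2.54 ± 0.282), Emcn (2.53 ± 0.399), Esam (1.32 ± 0.143), Kdr (0.409 ± 0.0369) and Vwf (0.178 ± 0.0353). In that group the neighbours that overlapped were Tie1 with Pecam1 and Pecam1 with Emcn. Tek moved from the second to the fourth place.

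The wider vascular genes were described by 5 lists with 83 genes, of which 72 were tested. Over these lists 9 genes rose and 1 fell past both limits, the median log2 fold change was 0.34, and without negative siRNA culture 2 the counts were 22 and 3. Of the 9 and 1 genes, Edn1, Nrp1 and Npr3 passed both limits whichever single culture was left out. Of the 83 genes, 8 had under 10 normalized counts in every culture. Among them, named after their values were seen, were Cldn5, the claudin of tight junctions, at 0 to 2.07 normalized counts per culture, Aplnr, the apelin receptor of sprouting veins, at 0 to 3.45, and Gpihbp1, a capillary protein that anchors lipoprotein lipase, at 0 to 2.92.

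Among 13 tested ligands, 1 rose and 1 fell past both limits, and the median log2 fold change was -0.13. Pgf, placental growth factor, which binds Flt1, had 37.35, 116 and 42.8 normalized counts with negative siRNA and 10.7, 14.6 and 13.1 with DNMT1 siRNA, the latter from 8 to 10 reads per library. It fell by 2.34 ± 0.52 on the log2 scale (SE, adjusted p = 0.0262), and by 1.64 without negative siRNA culture 2, and the call was lost without any single DNMT1 siRNA culture (adjusted p = 0.101, 0.108 and 0.0973). Edn1, the vessel-constricting peptide endothelin 1, had 969, 1422 and 1244 normalized counts with negative siRNA and 2638, 2634 and 2553 with DNMT1 siRNA, a rise of 1.11 ± 0.13 (SE, adjusted p = 0.00222). The groups were far apart for Edn1, and close for the most abundant ligand, Cxcl12 (log2 fold change 0.41 ± 0.21 SE, adjusted p = 0.234). None of the ligands of the VEGF receptors passed the test upward, and Vegfa and Vegfc were named after their values were seen. Vegfa had 2581, 8218 and 3927 normalized counts with negative siRNA and 3043, 2902 and 3117 with DNMT1 siRNA (log2 fold change -0.70 ± 0.35 SE, adjusted p = 0.229). Culture 2 was again the highest negative siRNA culture, and without it the log2 fold change of Vegfa was -0.11. Vegfc, the ligand of lymphatic vessels, differed by -0.33 ± 0.08 on the log2 scale (SE, adjusted p = 0.0316), within the limit on fold change.

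The 14 tested receptors and coreceptors had a median log2 fold change of 0.15, and 1 rose past both limits. This was Nrp1, the coreceptor that presents VEGF-A to Kdr, with 2987, 2428 and 2029.6 normalized counts with negative siRNA and 4355, 4248 and 4319 with DNMT1 siRNA (log2 fold change 0.79 ± 0.13 SE, adjusted p = 0.00725). The most abundant others were nearly level, with log2 fold changes of 0.10 ± 0.08 for Ptprb, the phosphatase that acts on Tek and Cdh5, and 0.06 ± 0.07 for Bmpr2, a receptor that acts with Eng (SE, adjusted p = 0.471 and 0.593). Flt4, the lymphatic receptor for Vegfc, had 379, 343 and 477 normalized counts with negative siRNA and 271, 271 and 281 with DNMT1 siRNA. The difference of -0.54 ± 0.14 on the log2 scale (SE, adjusted p = 0.0382) was just within the limit on fold change, and without negative siRNA culture 2 it was -0.64 and passed both limits (adjusted p = 0.00896). Flt4 was named after its values were seen.

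None of the 16 tested endothelial transcription factors passed both limits in edgeR, and their median log2 fold change was 0.31. At an unadjusted p below 0.05, 3 were higher and 0 lower, and DESeq2 gave 2 higher at an FDR below 0.05. The most abundant were Ets1 (log2 fold change 0.16 ± 0.10), Elk3 (-0.11 ± 0.10) and Foxc2 (-0.08 ± 0.11, SE, adjusted p of 0.344 to 0.672). Without negative siRNA culture 2, 2 factors rose past both limits, Sox7 (log2 fold change 1.75, adjusted p = 0.000418) and Gata2 (0.69, adjusted p = 0.0188), both named after their values were seen. The largest list, 19 tested genes of endothelial identity, had a median log2 fold change of 0.71, with 4 genes higher and none lower, and 12 higher without negative siRNA culture 2. Sele and Selp, the selectins that catch leukocytes on activated endothelium, had 39.7, 16.5 and 23.3 and 714, 261 and 561 normalized counts with negative siRNA, and 83.1, 70.0 and 68.7 and 1112, 1105 and 1094 with DNMT1 siRNA. Both had their lowest value in negative siRNA culture 2, the reverse of Pecam1 and Cdh5. They rose by 1.46 ± 0.32 and 1.11 ± 0.30 on the log2 scale (SE, adjusted p = 0.0250 and 0.0457). Procr, the protein C receptor, rose by 0.74 ± 0.19 and Prox1, a homeobox factor of lymphatic vessels and also of heart muscle, by 0.65 ± 0.15 (SE, adjusted p = 0.0387 and 0.0259). All 4 calls were lost without negative siRNA culture 3 (adjusted p of 0.0554 to 0.0782) and without any single DNMT1 siRNA culture (adjusted p of 0.0876 to 0.156).

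Of the 10 tested endocardial genes 3 rose past both limits and none fell, with a median log2 fold change of 0.43. Npr3, the clearance receptor for natriuretic peptides, had 434, 181 and 385 normalized counts with negative siRNA and 2112, 2251 and 2332 with DNMT1 siRNA. The lowest DNMT1 siRNA culture was far above the highest negative siRNA culture, and the log2 fold change was 2.74 ± 0.27 (SE, adjusted p = 0.00125), or 2.44 without negative siRNA culture 2. Nrg1, the growth factor that the endocardium sends to the muscle, rose by 0.63 ± 0.10 and Smad6, an inhibitor of BMP signalling, by 0.62 ± 0.09 (SE, adjusted p = 0.00758 and 0.00489). Without negative siRNA culture 2 their folds were 1.45 and 1.45, under the limit. Nfatc1, a transcription factor of endocardial and valve cells, had 386, 465 and 422 normalized counts with negative siRNA and 394, 424 and 360 with DNMT1 siRNA, and the groups overlapped (log2 fold change -0.11 ± 0.11 SE, adjusted p = 0.535). It was named after its values were seen.

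**Figure D4:**
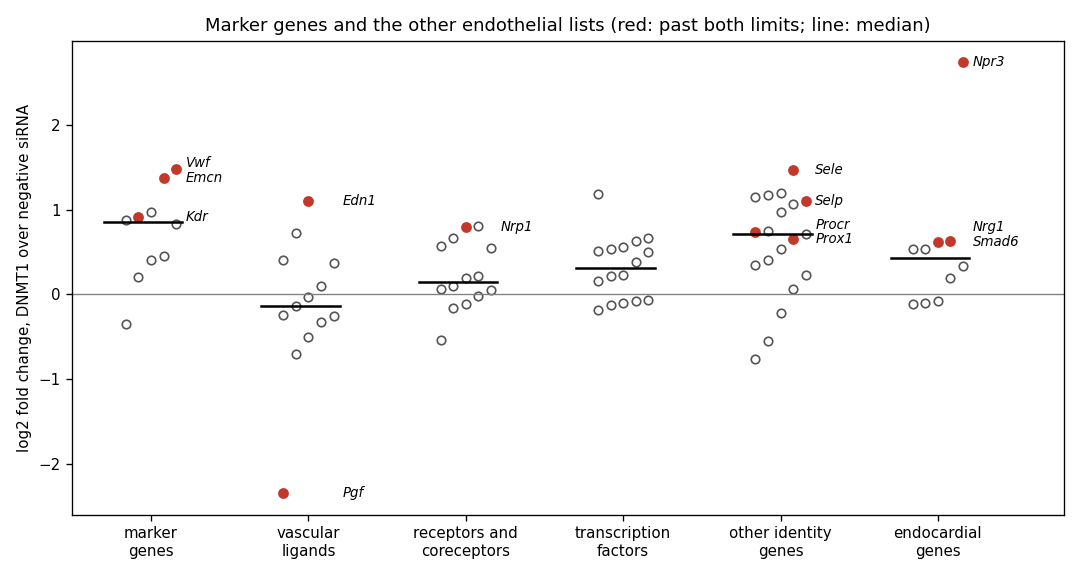
Log2 fold change of every tested gene, DNMT1 siRNA over negative siRNA, in the marker genes and in 5 wider vascular lists, with a bar at the median of each list. Genes in red passed an FDR below 0.05 and a fold change above 1.5, with Npr3 (2.74) highest and Pgf (-2.34) lowest.

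Markers of other cell types moved beside the endothelial markers. Of 10 cardiomyocyte markers 9 rose past both limits, and their summed level was 1954 to 2436 CPM per negative siRNA culture and 4449 to 5449 CPM per DNMT1 siRNA culture, 233% of the negative siRNA mean, against 137% for the 10 endothelial and endocardial markers. The latter sum was mostly set by Eng, which by itself stood at 136% of its negative siRNA mean. The median log2 fold change was 1.18 for the cardiomyocyte markers and 0.85 for the endothelial and endocardial markers. Of 10 fibroblast markers 3 fell (Col1a2, Col1a1 and Dcn), and Thy1 was higher past the FDR limit (log2 fold change 0.36 ± 0.07 SE, adjusted p = 0.0137). The summed level was 36549 to 56126 CPM per negative siRNA culture and 27929 to 29768 CPM per DNMT1 siRNA culture, of which the 3 collagens held 34837 to 54316 and 26383 to 28170 CPM, and the other 7 markers 1713 to 1839 and 1546 to 1668 CPM. The calls of Col1a1 and Col1a2 were lost without negative siRNA culture 2 (log2 fold change -0.42 and -0.44) and with the replicate block (adjusted p = 0.0605 and 0.0683). Of 8 tested smooth muscle and pericyte markers 1 fell, Pdgfrb (log2 fold change -0.62 ± 0.10 SE, adjusted p = 0.00682), with a summed level of 5496 to 8165 CPM and then 4633 to 4823 CPM. In the same list Rgs5, a pericyte gene, had 128, 37.9 and 52.1 normalized counts with negative siRNA and 139, 168 and 167 with DNMT1 siRNA (log2 fold change 1.10 ± 0.40 SE, adjusted p = 0.111 in edgeR and 0.0236 in DESeq2). Notch3 had 772, 2281 and 1247 normalized counts with negative siRNA and 1600, 1606 and 1653 with DNMT1 siRNA. Its groups overlapped (log2 fold change 0.18 ± 0.32 SE, adjusted p = 0.754). Only without negative siRNA culture 2, its highest value, did Notch3 pass both limits (log2 fold change 0.69, adjusted p = 0.0231). Thy1, Rgs5 and Notch3 were named after their values were seen. Of 7 epicardial markers 1 fell, Krt19 (-0.82 ± 0.18 SE, adjusted p = 0.0242), with 1636 to 1891 CPM and then 1806 to 1894 CPM. None of 9 macrophage and leukocyte markers passed both limits in edgeR (2 lower and 0 higher at an unadjusted p below 0.05, and 2 lower by DESeq2 at an FDR below 0.05), and their summed level was 12.7 to 32.0 CPM per negative siRNA culture and 11.9 to 20.4 CPM per DNMT1 siRNA culture. The 9 erythroid markers summed to 0.603 to 1.40 CPM and 1.30 to 3.22 CPM, with 1 of them tested and 2 at 0 in all cultures. The part of any of these cell types in the values of the endothelial markers was not tested.

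**Figure D5:**
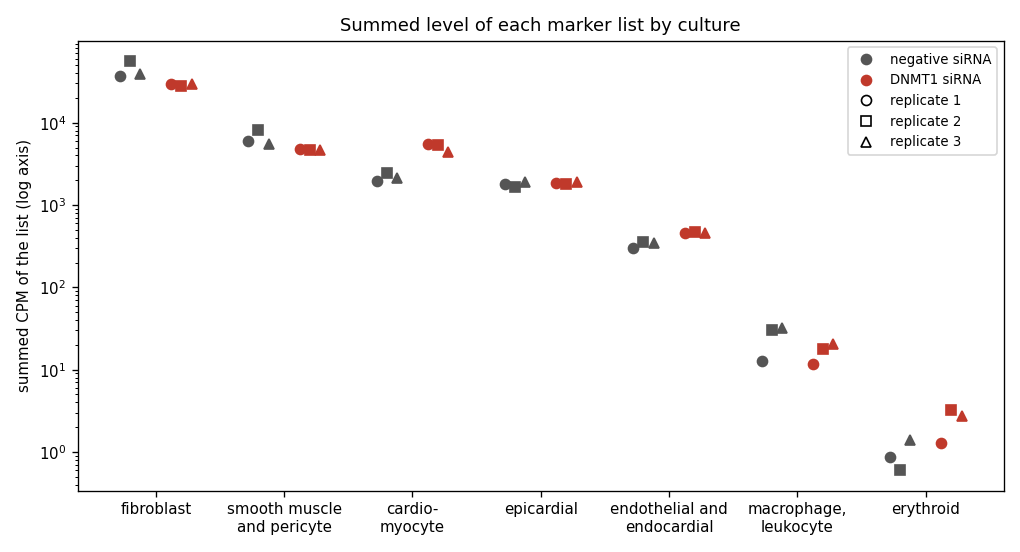
Summed CPM of each marker list in each culture on a log axis, with negative siRNA in grey, DNMT1 siRNA in red and replicate numbers by symbol. The endothelial and endocardial list lies at 303 to 353 CPM with negative siRNA and 452 to 466 CPM with DNMT1 siRNA, below the fibroblast, smooth muscle, cardiomyocyte and epicardial lists.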

How the data were processed

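RNA-Seq was made from 6 cultures, 3 with negative siRNA and 3 with DNMT1 siRNA, grouped by their titles. Per the labels, the authors used FastQC, mapped reads to mm10 (GRCm38) with TopHat2 and counted them with HTSeq, and deposited raw counts per Ensembl gene, without normalization. The 5 rows of counter totals were kept out of library sizes and tests. The software was edgeR 4.0.16 and DESeq2 1.42.0 under R 4.3.3, with figures from Python 3.11.15. The main test was the quasi-likelihood F test of edgeR after TMM normalization and filterByExpr (minimum count 10, minimum total count 15), without a block, with Benjamini-Hochberg adjustment over 15470 genes. A gene was called at an FDR below 0.05 and a fold change above 1.5. Standard errors were derived as |log2 fold change| over the root of the F statistic. Log2 CPM used a prior count of 2. With 3 cultures against 3, an exact test of a single value cannot go below p = 0.1, and depth limits the precision of genes with few reads, such as Vwf and Pgf. Within each group, no pair of libraries was a duplicate (chi-square per degree of freedom of 2.73 to 55.2), and pairs across groups were not compared. The steps were tested on simulated data.

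Positions, exon lengths and overlaps were read from GENCODE M21 (GRCm38), a later release than the authors used, which holds 42462 of the 43629 genes, and symbols were matched to gene identifiers in it. The rule for naming genes took all 10 members, Dnmt1, Vcam1, from each other list up to 6 called genes with the largest change (filled to 3 with the most abundant genes), and the 5 genes most like the members. Some genes it took from the lists of other cell types, such as Ttn, Upk3b and Acta2, are not described here. Tnnt2 and the other genes outside the rule were named after their values were seen. The members and lists were chosen with earlier results of these data known. Alternatives were DESeq2, the exact test, RLE normalization, 2 other filters, glmTreat, a replicate block, protein-coding genes alone, other limits and leaving out each culture.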

Additional observations from a re-analysis of the deposited data

Results flagged for a closer look

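The share of uniquely mapped reads outside annotated exons was higher in the DNMT1 siRNA libraries, at 29.3% ± 4.23 (29.282%) against 16.4% ± 1.58 with negative siRNA (SD, n = 3), and was noted because it lies outside the gene counts and above the level of the controls (two-sided exact permutation test, p = 0.1, the smallest that 3 against 3 can give). The share of reads that fell on more than 1 gene was 6.15% ± 0.175 against 3.62% ± 0.034 (SD, n = 3), and the groups did not overlap in either measure. The part of either difference in the values of the marker genes was not tested. Groups of 3 cultures are too small to test for a single outlying culture, so negative siRNA culture 2 was described by its values.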

How the results depend on the processing

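The number of markers higher past both limits was 3 over all cultures, 3 with the exact test, with RLE normalization and with protein-coding genes alone, and 4 with DESeq2. It was 6 with no filter on low counts, 5 with no limit on fold change, 0 with glmTreat and 0 at an FDR below 0.01, and between 0 and 6 when single cultures were left out. The number lower was 1 with no limit on fold change and 0 otherwise, and between 0 and 0 when single cultures were left out. In the wider lists, 9 genes were higher, and 16 with DESeq2, 15 with the exact test, 16 with no filter, 2 with glmTreat, 5 at an FDR below 0.01 and 3 to 22 with single cultures left out. There 1 gene was lower, and 3 with no filter, 3 with no limit on fold change, 0 with at least 10 counts in every sample, 0 with glmTreat, 0 at an FDR below 0.01 and 0 to 3 with single cultures left out. Over all tested genes, 345 were lower and 659 higher, against 701 and 994 with no filter, 36 and 140 with glmTreat, 874 and 1054 with no limit on fold change, 124 and 296 at an FDR below 0.01, and 112 to 472 and 255 to 823 with single cultures left out. With no filter the median log2 fold change of all genes was 0.11, and that of the markers 0.82. Among the genes named by rule, signs turned when a single culture was left out for Esam (log2 fold change -0.049 to 0.59), Elk3 (-0.16 to 0.0092), Foxc2 (-0.16 to 0.040) and Cd68 (-0.058 to 0.46), none of which passed the test. Over the 119 tested list genes outside the 10 markers, 9 signs turned without negative siRNA culture 2, and 1 of these genes, Ednrb, then passed both limits (-0.12 over all cultures and 0.74 without it). The stricter limits and tests call fewer genes by construction, and the cause of the other changes was not tested.

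Cultures of equal number shared no more than their number, with correlations of their deviations from the group means of 0.01, -0.02 and 0.03. With the replicate number as a block, 2 markers were higher (Emcn and Vwf, without Kdr) and 0 lower, 10 wider genes were higher and 1 lower, and 513 of all tested genes were higher and 285 lower.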

Other observations

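Some vascular genes outside the 10 markers had 1 negative siRNA culture far from the others, and were named after their values were seen. Cd93, a receptor of endothelial and myeloid cells, had 1056, 4004 and 1532 normalized counts in negative siRNA cultures 1, 2 and 3 and 1286, 1269.6 and 1331 with DNMT1 siRNA (log2 fold change -0.76 ± 0.42 SE, adjusted p = 0.269), and without culture 2 its log2 fold change was 0.0045. Thbd, thrombomodulin, had 1511, 1827 and 5656 with negative siRNA and 2039.6, 1950.3 and 2121 with DNMT1 siRNA, so that its high culture was number 3 (adjusted p = 0.439). Angpt2, the antagonist ligand of Tek, had 285, 108 and 302 with negative siRNA and 166, 230.3 and 186 with DNMT1 siRNA. Its log2 fold change was -0.25 ± 0.35 over all cultures and -0.59 without culture 2, where it passed both limits (adjusted p = 0.0251). Plvap, Mmrn2 and Clec14a, genes of capillary and growing vessel endothelium, had ratios of negative siRNA culture 2 to the mean of cultures 1 and 3 of 2.33, 2.55 and 2.84, like Tie1 among the markers. Over all cultures their log2 fold changes were 1.06, 1.17 and 1.19, and none passed the test (adjusted p = 0.0713, 0.0648 and 0.0987). Without culture 2 they rose by 1.60, 1.77 and 1.88 on the log2 scale (adjusted p = 0.000389, 0.000214 and 0.00116). A larger rise without a high negative siRNA culture follows by construction.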
